A study of Mus musculus with 15 samples.

Results

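Histone genes were taken as all protein-coding genes of chromosomes 1 to 19 whose symbol starts with H1f, H2ac, H2bc, H3c or H4c followed by a digit. Most of them were once named Hist1 to Hist4, but H1f0, H1f7, H1f8 and H1f10 were not, and H4bc24, H4f16, H2bu2 and H2aw, which have an older Hist symbol, are not taken in by the rule. The rule found 67 of 20665 protein-coding genes. Of these, 61 lay in 4 clusters, defined as runs of 3 or more histone genes with gaps of at most 100 kb. One cluster was on chromosome 3 (3 A, 10 genes in 50.3 kb) and the others were on chromosome 13 (13 A with 17 genes in 117.8 kb, 13 B with 5 genes in 8.54 kb, and 13 C with 29 genes in 233.4 kb). The other 6 genes lay outside these clusters. They were H2bc1 and H2ac1 on chromosome 13, H1f0 and H1f7 on chromosome 15, and H1f8 and H1f10 on chromosome 6.

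Nuclei came from liver of C57Bl/6 mice aged 8 to 12 weeks on normal diet, wild type (WT) or Uhrf1hepKO (KO), a strain in which Uhrf1 is deleted in hepatocytes. UHRF1 binds hemimethylated DNA behind the replication fork and recruits the methyltransferase that restores its methylation. What drives the hepatocyte deletion is not given in the labels, and whole liver also holds other cells. Chromatin cut to mononucleosomes by micrococcal nuclease was precipitated for H3K4me3 (2 WT and 2 KO libraries), H3K27me3 (2 WT and 1 KO at baseline, with 1 WT library each at 30, 40 and 96 h of regeneration) or H3K9me3 (1 WT and 1 KO library). WT replicate 2 of H3K27me3 served as the 0 h point of regeneration, and how regeneration was started is not given in the labels.

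Replication-dependent histone genes supply the core histones H2A, H2B, H3 and H4 and the linker histone H1 that package new DNA in S phase. They are short, lack introns in their usual form, make mRNAs that end in a stem-loop in place of a poly(A) tail, and are transcribed together from nuclear histone locus bodies, for which the coactivator Npat is required. The naming rule also takes in relatives with other uses. H1f0 and H1f10 are replacement linker histones made outside S phase, H1f6, H1f7, H2ac1 and H2bc1 are testis histones, and H1f8 is the linker histone of the oocyte. Of the marks measured, H3K4me3 is found at promoters that are active or poised, H3K27me3 is laid down by Polycomb repressive complex 2 over silent genes, and H3K9me3 is typical of silenced repeats. Most adult hepatocytes are out of the cell cycle and re-enter it in regeneration.

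Promoters that carry the contrasts described further on are shown as the 200 bases before the annotated start (RefSeq, GRCm38.p6, written 5′ to 3′ on the gene's strand). Capitals mark the letters of motifs known from histone promoters, on either strand: CCAAT, the TATA box TATAAA, the octamer ATTTGCAT, and AAACACA, the H1 box. H1f2, a somatic linker histone gene at chr13:23738607-23738806 on the plus strand, was among the strongest H3K4me3 promoters. H1f6 is its testis relative in the same cluster at chr13:23695611-23695810 on the plus strand, and had no H3K4me3 peak.
H1f2: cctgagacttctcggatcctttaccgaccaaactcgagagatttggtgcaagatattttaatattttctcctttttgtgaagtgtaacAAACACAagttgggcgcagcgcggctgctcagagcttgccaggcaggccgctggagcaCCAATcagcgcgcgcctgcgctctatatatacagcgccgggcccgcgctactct
H1f6: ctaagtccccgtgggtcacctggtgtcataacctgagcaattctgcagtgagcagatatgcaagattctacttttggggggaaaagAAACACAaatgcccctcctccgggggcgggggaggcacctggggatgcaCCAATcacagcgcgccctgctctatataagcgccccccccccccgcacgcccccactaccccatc
H2bc22 at chr13:21787288-21787487 on the plus strand shares this stretch with the divergent gene H2ac22, and both lay at the edge of an H3K27me3 island. H2ac1 at chr13:23934237-23934436 on the plus strand shares it with H2bc1, the pair under the H3K9me3 peak of WT liver.
H2bc22: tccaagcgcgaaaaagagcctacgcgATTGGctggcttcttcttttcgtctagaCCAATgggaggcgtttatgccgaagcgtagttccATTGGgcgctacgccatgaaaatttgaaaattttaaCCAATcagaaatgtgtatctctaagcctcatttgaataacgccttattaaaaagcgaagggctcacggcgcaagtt
H2ac1: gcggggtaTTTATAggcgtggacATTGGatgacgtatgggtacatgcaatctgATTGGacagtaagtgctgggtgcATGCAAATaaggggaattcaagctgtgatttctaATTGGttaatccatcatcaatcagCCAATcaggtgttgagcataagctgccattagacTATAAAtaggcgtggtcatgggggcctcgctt
H1f10 at chr6:87981483-87981682 on the minus strand was the histone gene whose whole promoter lay in H3K27me3 islands in several libraries, and it held none of these motifs in the stretch shown.
H1f10: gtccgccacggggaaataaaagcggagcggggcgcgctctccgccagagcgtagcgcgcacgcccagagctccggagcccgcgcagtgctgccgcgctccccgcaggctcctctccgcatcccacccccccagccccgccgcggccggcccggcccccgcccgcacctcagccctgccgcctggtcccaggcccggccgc

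The same motifs were counted in the 250 bases before the start on both strands. CCAAT was present in 82.5% of 57 promoters of cluster genes and in 35.3% of all 20085 promoters of the table. TATAAA was present in 45.6% against 11.7%, ATTTGCAT in 19.3% against 1.59%, and AAACACA in 12.3% against 5.56%. The histone classes differed in what they held. CCAAT was found in all 16 H2A and all 14 H2B promoters but in 3 of 11 H4 promoters, ATTTGCAT in 5 H2A and 6 H2B promoters and in no H1, H3 or H4 promoter, and AAACACA in 5 of 6 H1 promoters. H1f6 held both CCAAT and AAACACA, as H1f2 did, so these letters did not separate the marked from the unmarked linker gene. The ratio of observed to expected CpG of H1f6 was 0.45 against 1.001 in H1f2, with a median of 0.75 over cluster genes and 0.59 over all promoters. A low ratio did not set H1f6 apart either. The marked linker gene H1f1 had 0.59. H2bc15 (0.25), H2bc3 (0.28) and H4c2 (0.33) were lower than H1f6 and had H3K4me3 peaks in every library. These are matches of letters and not sites shown to be bound. Nor are the promoters independent. In 8 divergent H2A and H2B pairs of the clusters the searched stretches overlap, so that the same letters count for both genes. H2bc6 entered the H2B count with 2 starts.

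Several histone promoters were near copies of each other. Of 62 promoter windows, 13 shared at least one run of 30 identical bases with a window that did not overlap theirs, most of all H4c17 and H4c18 (94.5% of runs), H3c14 and H3c15 (83.4%), H2bc23 and H2ac24 (75.3%), and H2ac18 and H2ac19 (70.1%). How reads that match several copies were placed is not given in the sources used here, so peaks over these genes are uncertain as to which copy they come from.

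H3K4me3 covered nearly every histone promoter of the clusters in both genotypes. A promoter, 1 kb either side of the start (2001 bp), was called marked when at least 1 bp lay in an authors' peak. WT replicate 1 had 64 of 67 histone promoters marked where 64.9% of all promoters were, and WT replicate 2 had 61 where 58.4% were. In KO, replicates 1 and 2 each had 62 marked, with 64.0% and 61.1% of all promoters. All 4 libraries marked 61 histone genes and 57.6% of all genes. Neighbouring histone genes shared peaks, so that the 64 marked promoters of WT replicate 1 had 44 distinct strongest peaks and are not independent. No test between groups was made for any mark, because the lists hold called regions without counts per promoter and a group has 1 or 2 libraries. The labels do not say that libraries came from separate animals.

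The genes unmarked throughout were histone genes of germ cells. H1f6, H1f7 and H1f8 had no peak in any of the 4 H3K4me3 libraries. For H1f6 the nearest peak began 394, 783, 407 and 587 bp beyond its window in WT replicates 1 and 2 and KO replicates 1 and 2, whereas for H1f7 and H1f8 it was at least 37333 bp away in each. H1f6 was therefore the only one of 61 cluster genes without a peak. H2bc1 and H2ac1 shared a 160 bp peak of fold 6.71 in WT replicate 1, with no peak in the other libraries. H1f10 had 1113 bp in WT replicate 1, 0 in WT replicate 2, 865 bp in KO replicate 1 and 452 bp in KO replicate 2, with peak folds of at most 8.46. H1f0, by contrast, had its whole window of 2001 bp covered in every library.

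No histone gene met the definition of H3K4me3 gained in KO (peaks in both KO libraries and neither WT library), met by 0.111% of all genes. None met that of H3K4me3 lost in KO (the opposite), met by 0.0145%. Peak length moved with the replicate and not one way with genotype. In replicate 1 the KO length exceeded the WT length at 25 of 62 histone genes, against 37.0% of all genes, and the median KO over WT ratio was 0.99. In replicate 2 it did so at 47 of 61, against 79.4% of all genes, with a median ratio of 1.14 at histone genes and 1.06 at all. These shares lay close to those of all genes. Replicate 2 of each genotype is labelled round 2 and replicate 1 has no round in the labels, so a difference between replicates cannot be told apart from one between rounds.

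**Figure D1:**
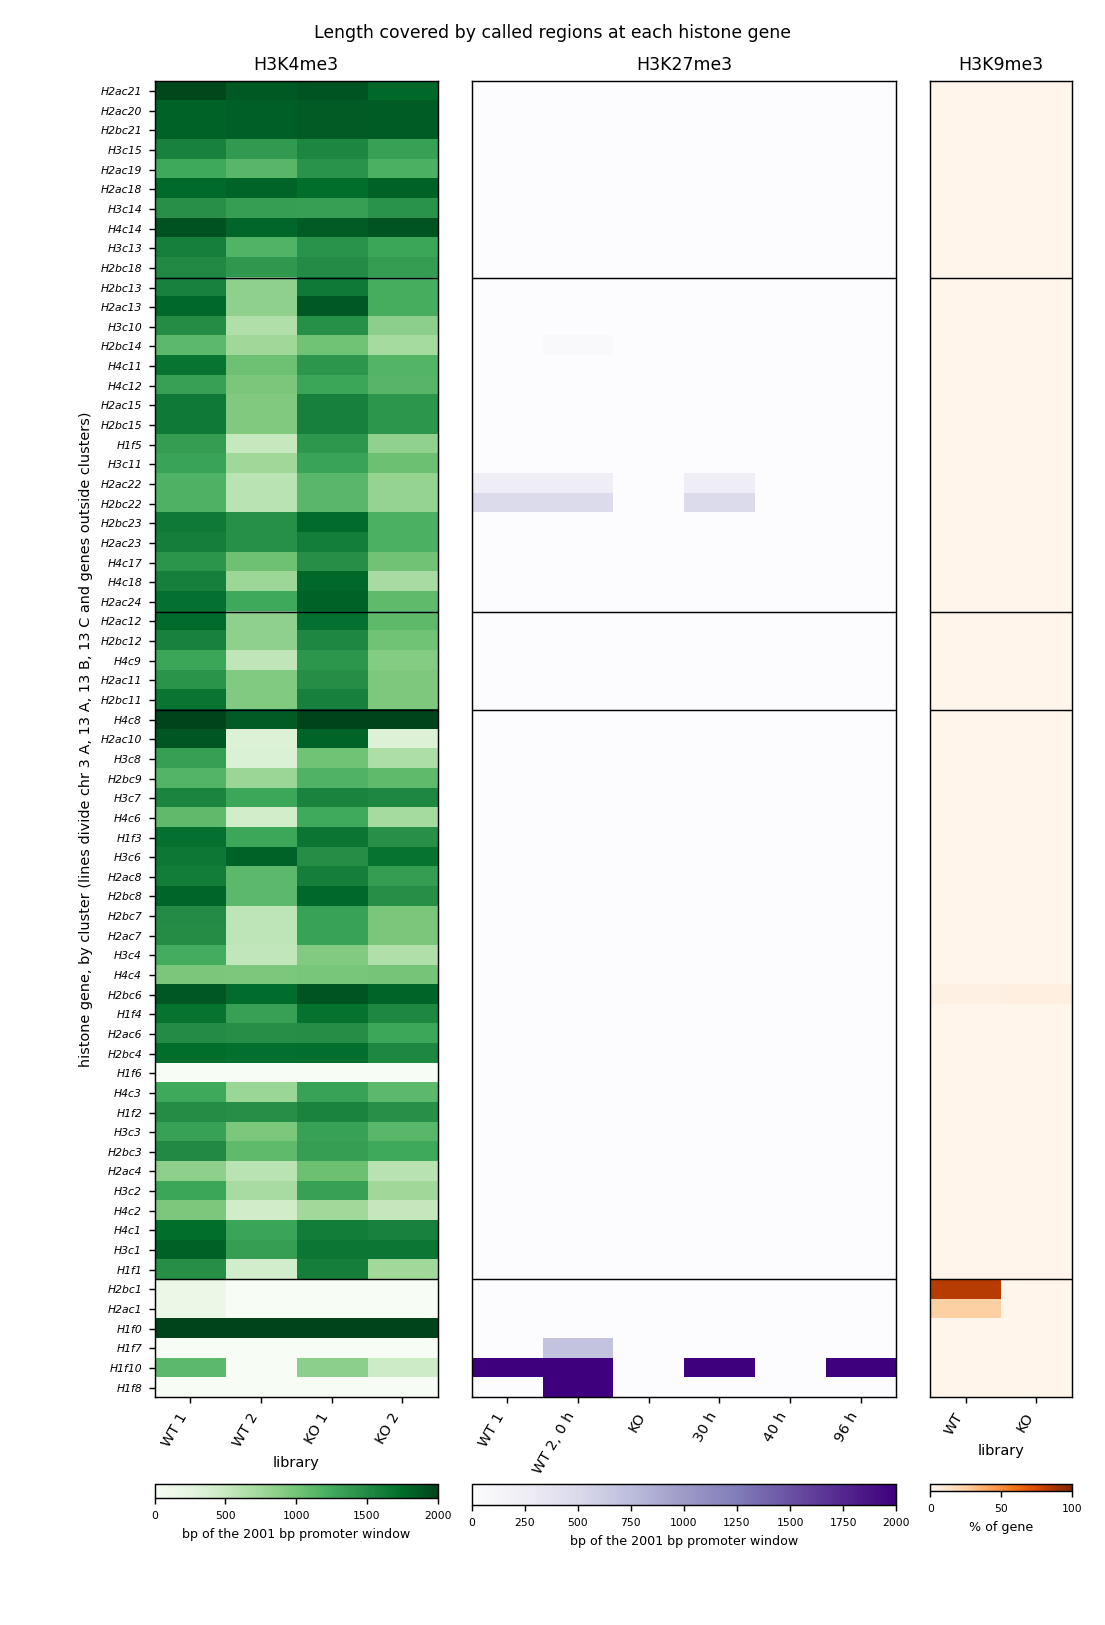
Covered length at each of the 67 histone genes (rows, by cluster and position) in each library (columns). H3K4me3 and H3K27me3 are in bp of the 2001 bp promoter window and H3K9me3 is in % of the gene. H3K4me3 fills the cluster rows except H1f6, and H3K27me3 is blank in KO and at 40 h.

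By class, the median lengths under H3K4me3 were closer in replicate 1 than in replicate 2. In replicate 2 of both genotypes, H1, with 5 marked cluster genes, had the longest median. In WT replicate 1 the median covered length at marked cluster genes was 1488 bp for H1, 1628 bp for H2A, 1578 bp for H2B, 1477 bp for H3 and 1375 bp for H4. In WT replicate 2 these medians were 1285, 1025, 932, 1062 and 961 bp in the same order. In KO replicate 1 they were 1598, 1602, 1581, 1388 and 1411 bp, and in KO replicate 2 they were 1462, 1197, 1227, 1212 and 1060 bp. The lengths of single genes within a class spread more widely than the class medians, from 858 to 1970 bp among H2A genes of WT replicate 1. Of genes marked in both replicates, 56 of 61 in WT and 55 of 62 in KO were covered over less length in replicate 2. The widest such gap was at H2ac10, a core H2A gene of cluster 13 C, with 1889 and 318 bp in WT replicates 1 and 2 and 1800 and 325 bp in KO replicates 1 and 2.

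Histone promoters were marked often but with peaks of moderate strength. The authors' fold of the strongest promoter peak had a median of 17.8 at histone genes and 19.8 at all marked promoters in WT replicate 1, and of 16.3 and 17.6 in KO replicate 1. In replicate 2 the gap was wider, with 19.6 against 47.0 in WT and 29.7 against 64.2 in KO. Histone genes above the median of all marked promoters numbered 23 of 64 and 9 of 61 in WT replicates 1 and 2, and 18 of 62 and 11 of 62 in KO replicates 1 and 2. Folds are the authors' own and are read here within each list.

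Cluster 3 A stood higher than the chromosome 13 clusters in round 2. Its median fold was 49.9 in WT replicate 2, beside 16.2 in 13 A, 17.1 in 13 B and 19.6 in 13 C. In KO replicate 2 the medians were 68.2 in 3 A and 22.1, 19.9 and 27.01 in 13 A, 13 B and 13 C. In replicate 1 the clusters were closer, with 20.4, 17.5, 16.6 and 17.9 in WT and 16.6, 16.8, 15.3 and 16.05 in KO, in the order 3 A, 13 A, 13 B and 13 C. Cluster 3 A thus led in 3 of the 4 libraries and not in KO replicate 1. These medians count each gene, also where genes share a peak. The 10 genes of 3 A had 5 distinct strongest peaks in replicate 2 of each genotype. Its medians there are the fold of the peak shared by H2ac20, H2ac21 and H2bc21. Cluster 3 A holds the near copies H3c14 and H3c15 and H2ac18 and H2ac19, and the part of shared reads in its folds was not tested.

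**Figure D2:**
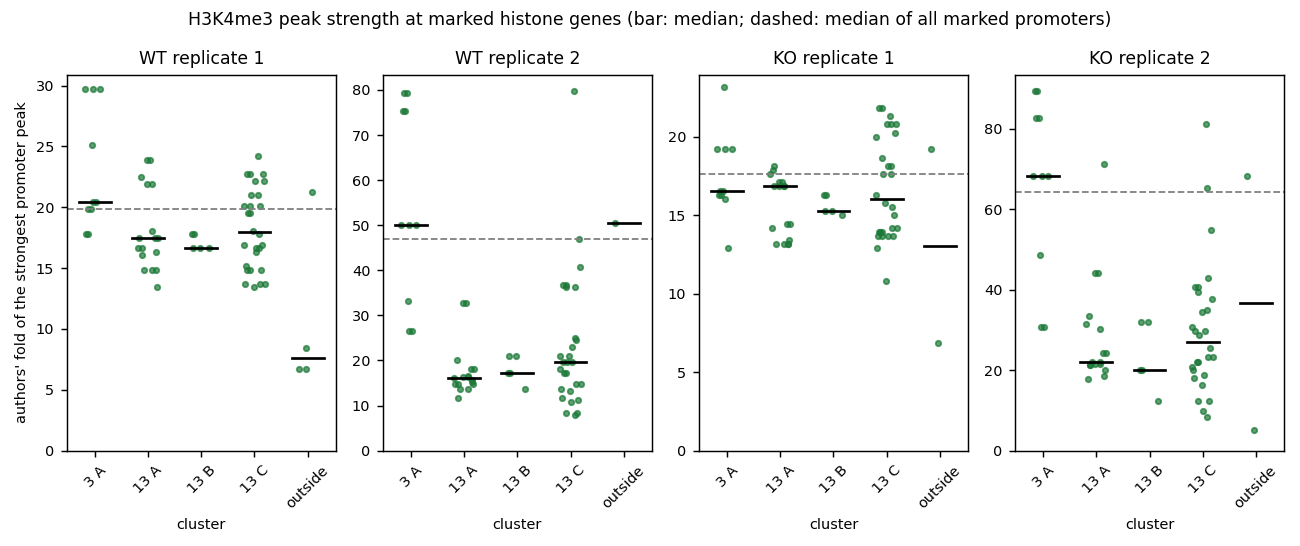
Authors' fold of the strongest H3K4me3 peak in the promoter of each marked histone gene (points), by cluster, in the 4 libraries on separate linear scales. Bars are cluster medians and the dashed line is the median of all marked promoters, which cluster 3 A exceeds in replicate 2 (49.9 against 47.0 in WT and 68.2 against 64.2 in KO).

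Among single genes, H1f2 had folds of 24.2 and 79.8 in WT replicates 1 and 2 and 21.3 and 81.2 in KO replicates 1 and 2. H2ac20, H2ac21 and H2bc21, H2A and H2B genes at the left end of cluster 3 A, shared a peak of 29.8, 49.9, 19.2 and 68.2 in the same order. H2bc6, an H2B gene, had 22.8, 47.0, 20.3 and 54.8. These 5 genes were among the 15 strongest histone genes in all 4 libraries. H2bc6 has 2 annotated starts and was given the strongest peak of both, which helps its rank. At its other start the peak, shared with H1f4, had 20.1, 36.2, 18.7 and 39.5. H2ac20, H2ac21 and H2bc21 were the strongest in WT replicate 1. At the low end in WT replicate 1 lay H2bc1 and H2ac1 at 6.71 and H1f10 at 8.46, all outside the clusters. The lowest cluster gene there was H2ac4, at 13.4, level with H4c18. H3c8 shows how far ranks moved between rounds, with folds of 17.8 and 7.83 in WT replicates 1 and 2 and 20.8 and 8.34 in KO replicates 1 and 2. As a description over the same genes, Spearman's rho of fold was 0.76 between WT and KO of replicate 1 (n = 62) and 0.87 between WT and KO of replicate 2 (n = 61), and 0.68 and 0.49 between the 2 replicates of WT (n = 61) and KO (n = 62). Peaks shared by neighbouring genes enter these values more than one time.

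Around the start, H3K4me3 peaks at histone genes left a deeper gap just before the start and ended sooner after it than at other promoters, while further upstream they covered more. The mean share of bases in peaks was taken in bins of 25 bp over 54 marked cluster genes with 1 annotated start, and over 7672 to 8454 other marked promoters. In the stretch next to the start, its lowest upstream point lay 62.5 to 87.5 bp before the start. It was 29.8% in WT replicate 1 and 11.6% in WT replicate 2, and 24.1% and 21.0% in KO replicates 1 and 2. At other promoters the lowest point of this stretch was 49.2%, 48.7%, 44.3% and 58.3% in the same order, and their coverage was lower still further upstream. From 1000 to 500 bp before the start the histone genes were at 68.6%, 39.04%, 68.4% and 44.9%, above the 41.4%, 27.5%, 40.7% and 29.8% of other promoters. From 100 to 400 bp after the start the histone genes were at 99.98%, 91.3%, 99.9% and 97.8%. From 500 to 1000 bp the means were 63.3%, 30.2%, 60.7% and 36.2%, against 73.6%, 63.1%, 73.4% and 67.5% at other promoters. The median annotated length of cluster genes was 493 bp, against 17491 bp over all genes, so this last stretch lies beyond the end of most of them. The part of gene length and of neighbouring peaks in the profile was not tested.

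**Figure D3:**
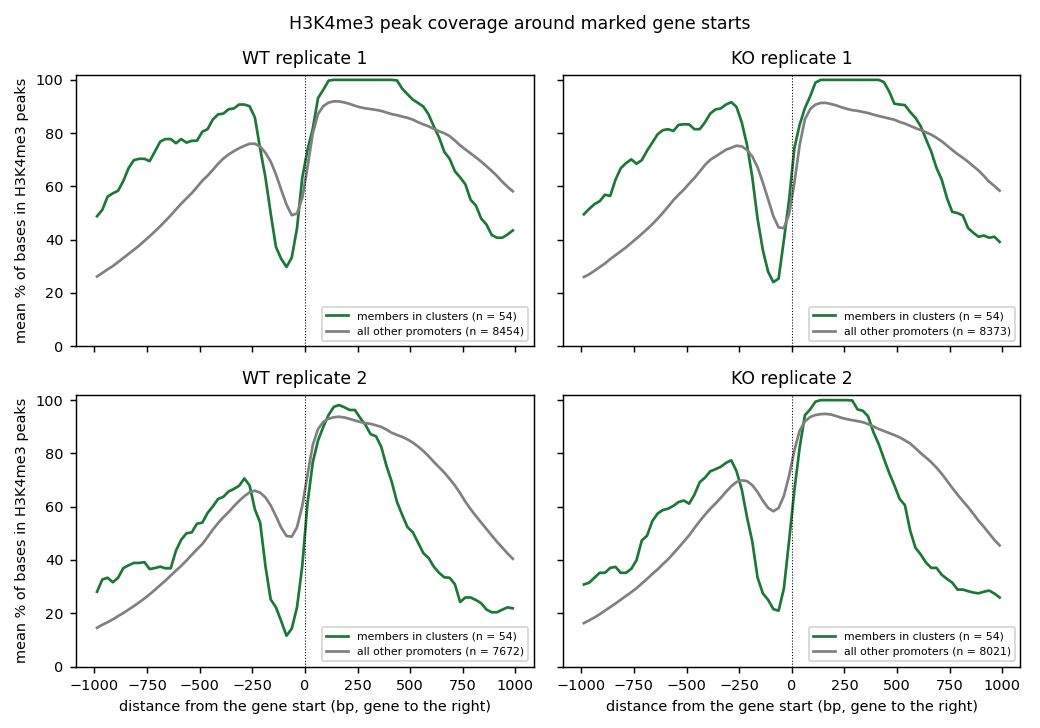
Mean % of bases inside H3K4me3 peaks by distance in bp from the gene start, for 54 marked histone genes of the clusters (green) and all other marked promoters with 1 annotated start (grey). The green curve dips to between 11.6% and 29.8% just before the start, below the grey curve, is above it further upstream, and is under it again toward 1000 bp after the start.

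Pairs of H2A and H2B genes that diverge from a common promoter mostly had such a gap between their starts. They were not compared with other histone genes over a like stretch. The clusters held 8 such pairs with an annotated start for both genes, with 163 to 248 bp (median 178 bp) between the 2 starts. H2ac20 with H2bc21 and H2ac6 with H2bc4 also lie side by side but were left out, since the strand and start of H2bc21 and H2bc4 were not taken from the annotation. The median share of that stretch inside peaks was 22.4% and 3.09% in WT replicates 1 and 2, and 18.5% and 10.8% in KO replicates 1 and 2. Between H2ac22 and H2bc22 it was 6.28%, 0%, 9.62% and 6.69%, and between H2bc23 and H2ac23 it was 5.99%, 0%, 11.4% and 0%. H2ac15 and H2bc15 were an exception in WT replicate 1, where the stretch was 100% inside a peak, with 38.7%, 53.4% and 32.5% in WT replicate 2 and KO replicates 1 and 2. H2bc13 and H2ac13 were the like case in KO replicate 1, at 100%.

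H3K4me3 peaks filled a large share of each cluster. They covered 24.4%, 19.7%, 23.5% and 20.8% of cluster 3 A in WT replicates 1 and 2 and KO replicates 1 and 2, and 46.2%, 26.9%, 46.6% and 33.3% of the short cluster 13 B. The values were 17.7%, 10.2%, 18.4% and 13.5% for 13 A and 20.5%, 12.8%, 20.1% and 14.8% for 13 C. All of chromosomes 1 to 19 had 1.81%, 0.85%, 1.79% and 1.002% covered in the same libraries.

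H3K27me3 was rare at the 67 histone promoters in WT liver and not called at any of them in KO. The SICER islands were used at a false discovery rate (FDR) of 0.01 or below. WT replicate 1 had 3 of 67 histone promoters in an island where 23.0% of all promoters were, and WT replicate 2, the 0 h library, had 6 where 28.5% were. The KO library had 0 of 67 where 23.7% of all promoters were. The KO share over all genes was thus near that of WT replicate 1, and the islands held 16372622, 21724770 and 21602917 ChIP reads in WT replicates 1 and 2 and KO. H2bu2, which has an older Hist symbol but is outside the rule, had all 2001 bp in islands in both WT replicates and KO. It had 0 bp at 30 and 40 h and 2001 bp at 96 h. H2aw, also outside the rule, had 316 bp at 0 h alone, and H4bc24 and H4f16 had no island at their promoters. Promoter windows with both an H3K4me3 peak and an H3K27me3 island numbered 3 at histone genes in each WT replicate and 0 in KO. The shares of all genes were 10.4%, 8.55% and 9.85% in WT replicates 1 and 2 and KO. At H2ac22 and H2bc22 the peaks ended at 21787964 and 21787765 in WT replicates 1 and 2, before the island began at 21788001. At H2bc14 in WT replicate 2 they ended at 21722418, before the island began at 21723001. At H1f10 in WT replicate 1 the peaks lay inside the island. WT replicate 2 joins an H3K4me3 library of round 2 and an H3K27me3 library of round 3.

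**Figure D4:**
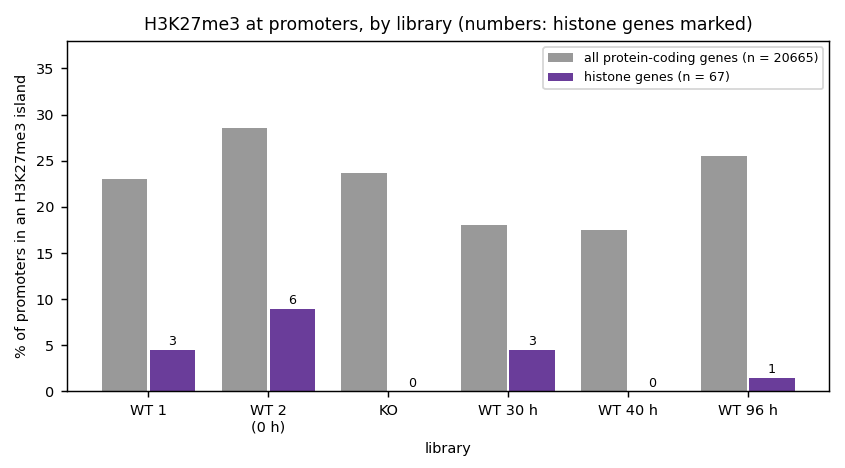
Share of promoters with at least 1 bp in an H3K27me3 island in each library, for all 20665 protein-coding genes (grey) and the 67 histone genes (purple), with the number of histone genes above each purple bar. The purple bars, from 0 to 6 genes, are below the grey ones in all 6 libraries.

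H1f10, H2ac22 and H2bc22 met the definition of H3K27me3 lost in KO (islands in both WT libraries and none in KO), which 1.39% of all genes met, and no histone gene met that of gained (an island in KO and in neither WT library), which 0.958% met. The 3 genes stand for 2 islands, since H2ac22 and H2bc22 share one. H1f10 had its whole window covered by an island of 9000 bp (fold 2.22) in WT replicate 1 and one of 14000 bp (fold 2.12) in WT replicate 2, from 399 and 770 ChIP reads over 312 and 813 control reads. Within their lists these folds were above 94.6% and 93.5% of islands. In KO the nearest island lay 127518 bp beyond the window of H1f10. The island of cluster 13 A at chr13:21788001-21806000 (WT replicate 1, fold 1.85) and chr13:21788001-21803000 (WT replicate 2, fold 1.75) covered only 248 bp of the H2ac22 window and 488 bp of the H2bc22 window. It lay over the annotated body of H2bc22, which is far longer than a usual histone gene. H2ac22 and H2bc22 kept H3K4me3 peaks in every library, of fold 17.5 and 18.1 in WT replicates 1 and 2 and 14.5 and 24.3 in KO replicates 1 and 2.

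The other 3 marked genes were in islands in WT replicate 2 alone. They were H2bc14 of cluster 13 A (44 bp of the window), the spermatid gene H1f7 (694 bp, island fold 1.28) and the oocyte gene H1f8 (all 2001 bp, in an island of 69000 bp with fold 1.66). These 3 calls did not recur in WT replicate 1, so the WT libraries differed from each other as much as WT replicate 1 did from KO. WT replicate 1 and KO share 1 control library, since the control count was identical in all 411 islands that had the same bounds in the 2 lists, against 0 of 155 such islands between WT replicates 1 and 2. With 1 KO library there is no replicate check. Islands at 25 markers of cells other than hepatocytes also moved between libraries, being called at 11, 16 and 19 of their promoters in WT replicates 1 and 2 and KO, and at 0 of 9 hepatocyte markers in each. Their part in the histone calls was not tested.

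During regeneration no histone promoter came to be marked that was unmarked at 0 h. From 61 histone genes unmarked at 0 h, 0 were marked at 30, 40 or 96 h, where 2.29%, 2.52% and 3.88% of all unmarked genes were. These shares are small, so 0 of 61 lay near them and does not set histone genes apart. Marked histone genes numbered 6 at 0 h, 3 at 30 h, 0 at 40 h and 1 at 96 h, against 18.0%, 17.5% and 25.5% of all promoters at 30, 40 and 96 h. Of the 6 marked at 0 h, 3 were unmarked at 30 h, 6 at 40 h and 5 at 96 h, where 42.4%, 44.9% and 20.2% of all genes marked at 0 h were. The count unmarked at 30 h was near the share of all genes, and those at 40 and 96 h were above it on 6 genes and 5 islands. Each time had 1 library, so no value here has a replicate check.

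H1f10 was marked at 0, 30 and 96 h and not at 40 h. Its island had a fold of 2.12 at 0 h, 1.496 at 30 h and 2.05 at 96 h, and at 40 h the nearest island was 129518 bp beyond its window. H2ac22 and H2bc22 were marked at 0 and 30 h (fold 1.75 and 1.46). At 96 h an island of fold 1.63 was again in the body of H2bc22, but it began at 21789001, a single 1000 bp SICER window further on, and so missed both promoters. H2bc14, H1f7 and H1f8 were marked at 0 h only. The loss of calls at 40 h coincided with the smallest covered length of the series, 378 Mb against 482 Mb at 0 h, 417 Mb at 30 h and 458 Mb at 96 h, and with 12757716 ChIP reads in islands against 21724770, 15161913 and 21354795. No island above the FDR limit lay at any histone gene in any list. The 30, 40 and 96 h lists share control counts that differ from those of the 0 h list. Islands with the same bounds had equal control counts in 243 of 243 cases at 30 and 40 h. At 0 and 30 h they did in 1 of 128. The labels name a single input for round 3, to which all these libraries belong, and do not say why the counts differ. Markers of other cells were in islands at 16, 8, 9 and 14 of 25 promoters at 0, 30, 40 and 96 h. Whether depth, control or cell makeup entered the histone calls was not tested.

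Over whole clusters, H3K27me3 islands lay mostly outside the stretch of histone genes. Clusters 3 A and 13 B had no base in an island in any of the 6 H3K27me3 libraries, and 13 C had none in 5 of them, with 4.29% at 96 h from an island of 10000 bp between genes. Cluster 13 A had 15.3% in WT replicate 1, 21.2% in WT replicate 2, 0% in KO, 17.0% at 30 h, 0% at 40 h and 13.6% at 96 h. Islands covered 15.4% to 20.3% of chromosomes 1 to 19. To the right of cluster 3 A an island began within 5808 bp of the last histone gene in all 6 libraries, 3808 bp from it in both WT replicate 1 and KO, and took in Fcgr1, an Fc receptor gene of macrophages. Islands came within 8342 to 21121 bp of cluster 13 B in each of the 6 libraries. The stretch free of islands around cluster 13 C measured 427 kb in WT replicate 1, 422 kb in WT replicate 2, 426 kb in KO, 466 kb at 30 h and 487 kb at 40 h. At baseline, clusters 3 A, 13 B and 13 C thus held no island in either genotype, and the calls that separated KO from both WT libraries were those in 13 A and at H1f10.

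**Figure D5:**
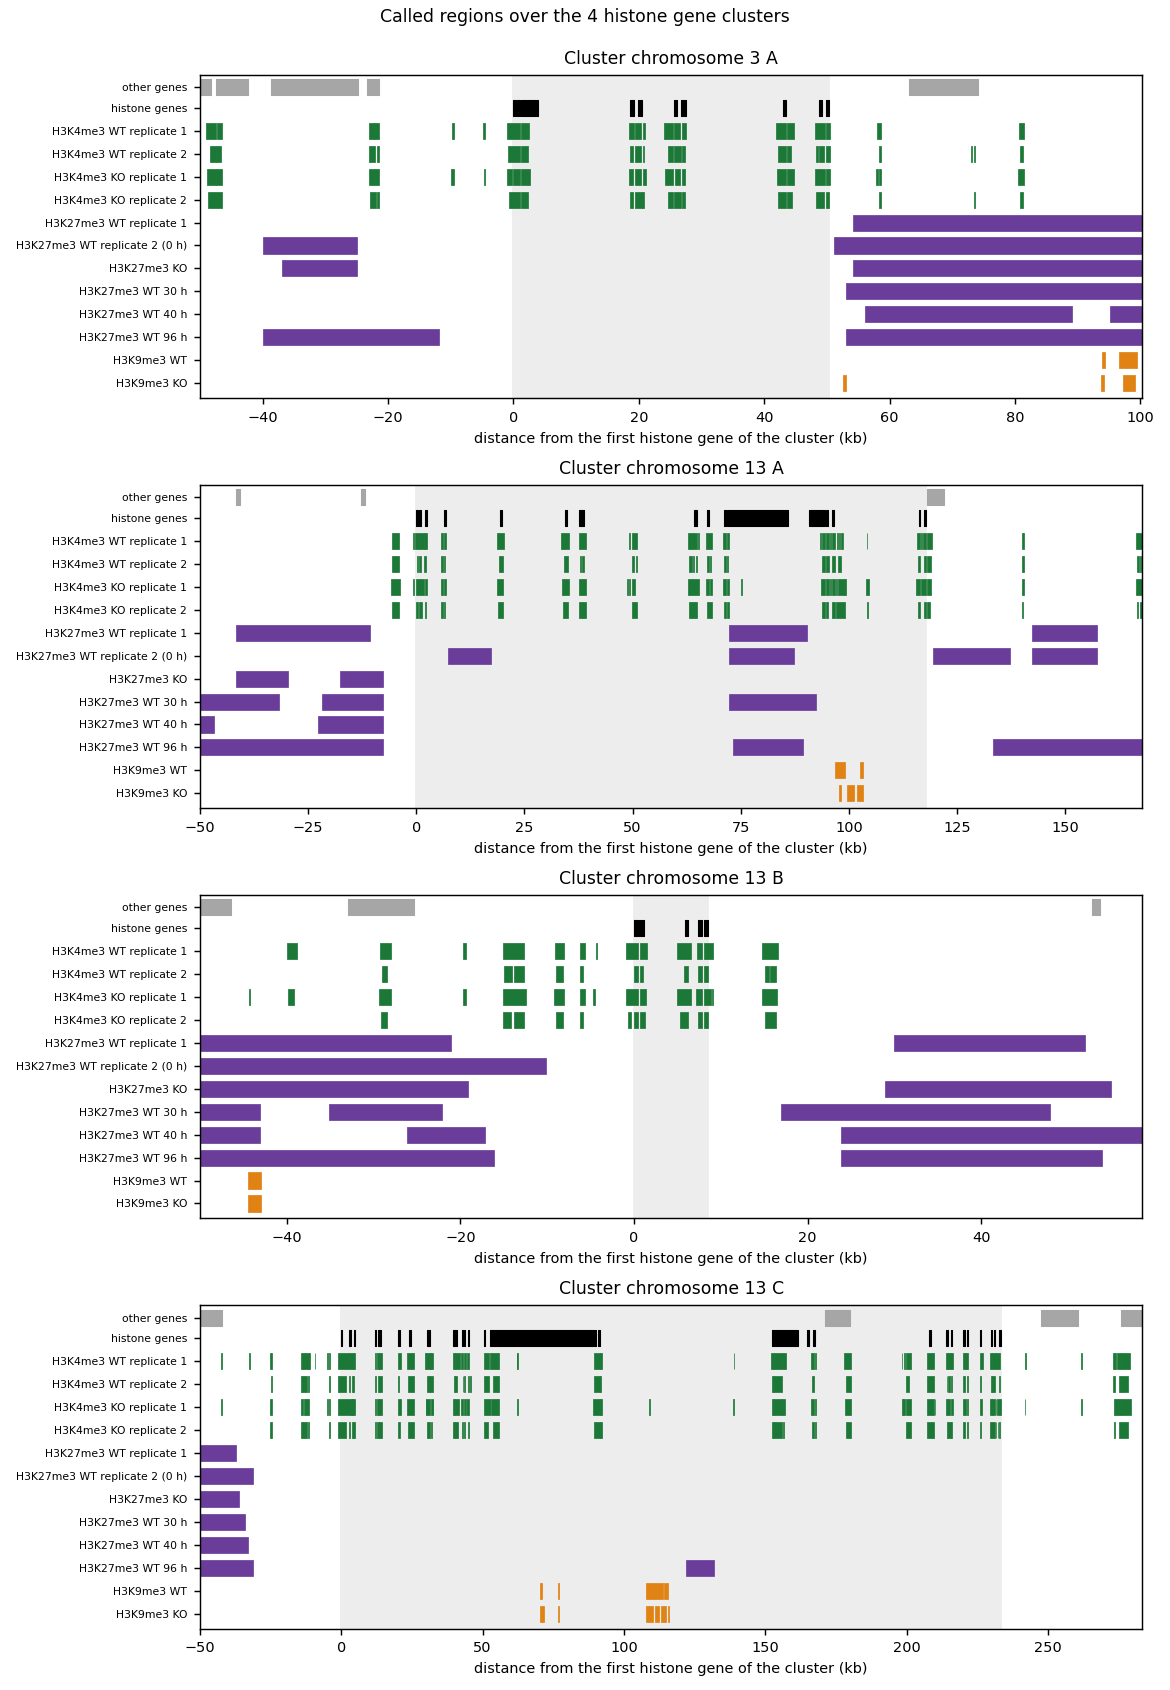
Called regions of each library (rows) by distance in kb from the first histone gene of each cluster, with histone genes in black, other protein-coding genes in grey and the cluster shaded. H3K4me3 peaks (green) sit on the histone genes, H3K27me3 islands (purple) lie mostly outside the shading except in 13 A, and H3K9me3 broad peaks (orange) lie between histone genes or in the long body of H2bc6 in 13 C.

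Other genes beside the clusters were in H3K27me3 islands in every library, KO and 40 h included. Of 22 other protein-coding genes within the clusters or 100 kb of them, 7 (31.8%) were marked in WT replicate 1, 5 (22.7%) in WT replicate 2 and 7 (31.8%) in KO, where 23.0%, 28.5% and 23.7% of all promoters were. At 30, 40 and 96 h the counts were 7 (31.8%), 7 (31.8%) and 10 (45.5%), where 18.0%, 17.5% and 25.5% of all promoters were. The 22 genes include H4bc24, a histone gene outside the naming rule that had H3K4me3 in all 4 libraries and no island. They also include the protease gene Prss16, the butyrophilin gene Btn2a2 and olfactory receptor genes. Hfe, the iron regulator whose gene lies inside cluster 13 C, had H3K4me3 in all 4 libraries (1339 to 1555 bp) and no island.

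H3K9me3 covered 2 histone genes in WT and none in KO, and the WT share (2.99%) was close to that of all genes. At least 10% of the gene lay in broad peaks at 2 histone genes in WT, where 3.16% of all genes were so covered, and at 0 in KO, where 2.88% were. The 2 were the divergent testis pair H2bc1 (82.9% of the gene) and H2ac1 (24.9%), under 1 broad peak of 757 bp at chr13:23933799-23934555. That peak was weak for its list, with a fold of 3.13, above 11.5% of peaks, and a −log10 q-value of 1.65. It overlapped the 160 bp H3K4me3 peak of WT replicate 1. In KO the nearest broad peak was 94524 bp from H2bc1. The pair met the definition of lost (covered in WT, no broad peak in KO), as did 0.145% of all genes, and no histone gene met that of gained, met by 0.0677%. The pair counts as 1 peak, each genotype had 1 library, and under the authors' narrow peaks or a q-value limit of 1e-05 the call was gone in WT too. Within the clusters, broad peaks lay between genes or in the long annotated body of H2bc6 (3.596% in WT and 4.37% in KO). They covered 2.36% and 2.93% of 13 A and 3.73% and 3.24% of 13 C in WT and KO, and none of 3 A or 13 B, where chromosomes 1 to 19 had 2.29% and 1.97%.

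Genes that act with the clustered histones carried H3K4me3 and no H3K27me3. All 10 matched genes of histone mRNA processing and transcription, among them the stem-loop binding protein gene Slbp and Npat, and all 11 matched histone chaperone genes had H3K4me3 in all 4 libraries, as 57.6% of all genes did, and H3K27me3 in none of 6. Genes listed as replacement histones had H3K4me3 at 10 of 11 in each library, the exception being H2al2a, a testis gene. Macroh2a2 was in an island over its whole window in every library but that of 40 h, beside H3K4me3 of 1241, 680, 1133 and 978 bp in WT replicates 1 and 2 and KO replicates 1 and 2. H2aw, which is in this list but has an older Hist symbol, had 316 bp in an island at 0 h alone. The promoter of Uhrf1 itself was marked by H3K4me3 in all 4 libraries (1283, 869, 1070 and 1283 bp), which does not check the deletion, since its site is not given in the labels.

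As a check on tissue, hepatocyte markers had H3K4me3 at 9 of 9 in replicate 1 and 8 of 9 in replicate 2 of both genotypes, while macrophage markers had it at 1 and 4 of 5 in WT replicates 1 and 2 and at 0 and 4 of 5 in KO replicates 1 and 2. Over 25 markers of other cells the counts were 15, 16, 13 and 18. Bile duct markers went the other way between replicates, at 4 and 2 of 5 in each genotype, and endothelial markers were at 5 of 5 in all 4 libraries. Marker counts thus moved with the round in both directions, and their part in the lower histone folds of round 2 relative to all promoters was not tested. The antibody tag of both round 2 H3K4me3 libraries names H3K9me3, against their titles, and they were grouped by title.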

How the data were processed

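Per the submitters' processing notes, the authors used SICER, MACS2, Picard, BWA, Trimmomatic and FastQC 0.11.5, on the builds GRCm38.p4 and mm10. How reads that match several copies were handled is not given in the sources used here. Each library had its own region calls. The deposited H3K4me3 and H3K9me3 lists are MACS2 peaks with a score, a fold enrichment over control as a ratio, and −log10 p-values and q-values, per the file layout. The deposited H3K27me3 lists are SICER islands (window 1000 bp, gap 4000 bp) with raw counts of ChIP and control reads as the authors gave them, a p-value, a fold scaled to library size and an FDR.

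Gene bounds were those of RefSeq for GRCm38.p6, a later patch of the GRCm38 (mm10) build that the authors used, with the same coordinates on chromosomes 1 to 19. Annotated starts from the RefSeq promoter table served 16457 genes (62 histone genes). For the others the end with more H3K4me3 was used, or both ends where neither led. For H2bc4, H2bc21, H3c1, H3c7 and H4c14 the H3K4me3 call is thus helped by the choice of end. For covered length, a gene with several starts took the window with the most coverage. For fold it took the strongest peak over the windows of all its starts. Islands were kept at an FDR of 0.01 or below. No count model was run, since the lists hold called regions and no table of all promoters. No p-value is given between groups. Depth per library is not in the lists, and reads in islands stand in for it. Lists of related genes were matched by symbol, and Cstf2, Symplk, Atrx and Tf had no match on chromosomes 1 to 19. Genes named were all histone genes that differed between libraries, the strongest and weakest H3K4me3 peaks, and all genes outside clusters, with a few others (H2ac10, H3c8 and pairs with exceptional gaps) chosen after their values were seen. The histone genes and lists were chosen with earlier results of these data known. Overlap code was tested on simulated regions. The tools were pandas 2.3.3 and numpy 2.4.6 under Python 3.11.15, with figures by matplotlib 3.10.9. Alternatives covered the window, minimum overlap, peak strength, FDR, equal covered length, start rule (added after seeing the data) and leaving out each replicate.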

Additional observations from a re-analysis of the deposited data

How the results depend on the processing

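H3K4me3 was marked at 61 to 62 histone genes in every library when each replicate was left out, with gained calls of 0 to 1 (1, H1f10, without WT replicate 1) and lost calls of 0 to 2 (2, H2bc1 and H2ac1, without WT replicate 2). H3K27me3 lost calls were 3 to 6, with 6 when WT replicate 1 was left out, and the KO count was 0 under each alternative run. Requiring the whole window in an island left 1 marked histone gene in WT replicate 1, 2 at 0 h, 1 at 30 h and 1 lost in KO. A fold of 2 or more left 1, 1 and 0 in the same libraries, with 1 lost. By gene body, 2 histone genes were covered at 96 h. H3K9me3 covered 1 KO gene (H2bc6) with any overlap. At least 25% of the gene gave 1 covered in WT and 1 lost, and narrow peaks, or a q-value at or below 1e-05, gave 0 and 0. The other 67 planned values and the 12 from the added start rule stayed within 1.5 times the main count. The cause of each change was not tested beyond what the setting itself removes. No paired test was run, since the lists hold no counts per promoter and a group has 1 or 2 libraries. KO over WT lengths of H3K4me3 are given within each replicate. With 1 library per time and per H3K9me3 genotype, a call of absence means that no region was called at that library's depth.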
